A study of Mus musculus with 17 samples.

Results

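The genes described here are the fibroblast growth factor (FGF) receptors and the feedback targets of their signalling in sorted cells of the embryonic mouse cortex. They were taken by gene symbol: Fgfr1, Fgfr2, Fgfr3, Spry1, Spry2, Spry4, Dusp6, Etv1, Etv4 and Etv5, with every probe set that carries one of these symbols alone. This gave 21 probe sets of 34945 with 1 symbol, for 9 of the 10 genes. The 3 probe sets of Etv1 list a second symbol, so no value is given for Etv1.

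The donors were embryos of the hGFAP-eGFP mouse, whose transgene puts enhanced green fluorescent protein (GFP) under the human GFAP promoter, and 17 samples of sorted cortical cells were each read on 1 Affymetrix array. The oldest group was GFP-positive cells of embryonic day 18 (E18) that were also sorted for surface Prominin, the product of Prom1 (n = 4). The other groups were from embryonic day 14 (E14). With the same Prominin selection there were 4 samples of GFP-high cells and 3 of GFP-low cells. Without it, as far as the labels say, there were 3 samples of GFP-high and 3 of GFP-low cells, called ungated here. The E18 labels give no high or low GFP level. Age and GFP sort therefore differ together in both comparisons of E18 with E14 and cannot be told apart. Separate litters are not stated for the samples, so a p-value covers only the variation among these samples, part of which may be technical. Each sample is a sorted population and not 1 cell type, and in such bulk RNA fewer cells of a type and less RNA per cell cannot be told apart.

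FGF receptors are tyrosine kinases that pass the binding of a ligand through the adaptor Frs2, Ras and Raf to the kinase ERK. In the cortical neuroepithelium they are known for keeping progenitors dividing and for patterning the cortex. ERK signalling in turn raises transcription of its own inhibitors, the Sprouty proteins (Spry genes) and the ERK phosphatase Dusp6, and of the PEA3 group of ETS transcription factors (Etv1, Etv4, Etv5). The level of these targets is therefore often read as a sign of pathway output, although each also has other inputs.

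One repressor that ERK relieves at such targets is Capicua (Cic), which binds sites with the core TGAATG or TCAATG. RefSeq promoter windows (build GRCm38.p6, 250 bases before to 50 after a start site) were found for 7 of the 10 genes, 10 windows in all. Either core, on either strand, occurred in 4 of these windows, those of Dusp6, Spry2, Fgfr2 and 1 of the 2 windows of Etv5. Across all 32851 windows the share was 19.9%, and 3 or more matches occurred in 0.46%. The Dusp6 window and 1 Etv5 window each held 3 matches, and they are shown here because no other window of these genes held as many. The Spry2 window is shown with them for the feedback inhibitor with the largest E18 difference. The letters run 5′ to 3′ on the gene's strand, and the capitals mark the core (CATTCA and CATTGA are the cores read on the other strand). The motif was chosen after the windows were viewed, so the shares over all windows are no test of these genes. The letters AGGAAG and CCGGAA were also searched for, and occurred in 35.4% and 14.9% of all windows. Among the windows of these genes, AGGAAG occurred in those of Fgfr2 and Dusp6 and in 1 each of Etv1 and Etv5. CCGGAA occurred only in that of Spry2. A match is a description of these letters, not a site shown to be bound.
Dusp6, chr10:99262981-99263280, plus strand: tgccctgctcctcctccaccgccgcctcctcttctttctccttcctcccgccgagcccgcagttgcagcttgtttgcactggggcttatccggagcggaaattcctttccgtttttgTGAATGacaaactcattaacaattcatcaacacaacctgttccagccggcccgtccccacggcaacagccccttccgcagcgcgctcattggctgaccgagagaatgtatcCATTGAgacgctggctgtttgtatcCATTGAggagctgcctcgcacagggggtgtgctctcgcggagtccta
Etv5, chr16:22438319-22438618, minus strand: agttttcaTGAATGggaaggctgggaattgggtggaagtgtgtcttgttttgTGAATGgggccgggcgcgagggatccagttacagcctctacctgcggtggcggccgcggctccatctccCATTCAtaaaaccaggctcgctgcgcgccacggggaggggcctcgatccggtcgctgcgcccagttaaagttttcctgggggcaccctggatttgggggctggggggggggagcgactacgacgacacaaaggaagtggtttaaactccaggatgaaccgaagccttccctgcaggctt
Spry2, chr14:105896770-105897069, minus strand: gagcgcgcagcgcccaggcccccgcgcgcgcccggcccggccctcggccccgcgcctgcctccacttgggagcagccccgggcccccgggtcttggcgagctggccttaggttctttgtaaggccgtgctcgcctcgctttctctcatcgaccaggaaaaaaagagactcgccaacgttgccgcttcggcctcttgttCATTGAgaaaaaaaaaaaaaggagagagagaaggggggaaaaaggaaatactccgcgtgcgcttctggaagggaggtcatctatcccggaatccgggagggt
In Dusp6 the cores began at positions −133, −22 and 4 relative to the start site, and the last 2 are both of the TCAATG form. In Etv5 the 3 matches were all TGAATG and lay at −242, −198 and −129. The Spry2 window held 1 TCAATG, at −52. The windows of Fgfr3, Spry1 and Etv1 held neither core.

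The sorted populations were checked against marker genes. A list of 12 radial glia genes had a mean level per array of 8.25 to 8.57 at E18, 9.13 to 9.55 in GFP-high and 8.57 to 8.87 in GFP-low Prominin-selected cells of E14, and 10.21 to 10.24 in ungated GFP-high and 7.67 to 8.32 in ungated GFP-low cells. Prom1 averaged 8.84 in the Prominin-selected cells at E18, 10.93 and 10.19 in GFP-high and GFP-low Prominin-selected cells at E14, and 10.78 and 8.63 in ungated GFP-high and GFP-low cells. Gfap lay below the median gene in all 5 groups, at 4.82 to 5.77. Arrays also differed in control signals: the 3′ probe set of Gapdh exceeded the 5′ one by −0.21 to 1.00 (log2) at E18, by 0.54 to 2.30 on the 7 Prominin-selected arrays of E14 and by −0.25 to 0.18 on the 6 ungated arrays. The 18S control read 569 to 910 at E18, 2110 to 6147 on those 7 arrays and 114 to 1396 on the ungated arrays. The dap spike-in control read 837 to 2356 at E18, 0.632 to 4145 on those 7 arrays and 613 to 1713 on the ungated arrays. Per the labels, a MessageAmp II kit was used for the 11 Prominin-selected arrays and replicate 1 of the ungated GFP-high cells, and the remaining 5 were labelled with an Affymetrix kit. The median signal of an array was 24.1 to 44.9, and precision is limited by the number of arrays.

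Levels are log2 intensities after quantile normalisation, read from the probe set of a gene with the highest mean, and the median gene lay at 6.29. Fgfr1, Fgfr2, Fgfr3, Spry1, Spry2, Dusp6 and Etv5 had a mean above that median, whereas Spry4 and Etv4 lay below it. Group values are mean ± SD, differences between groups are log2 values ± SE, and a gene is called at a Benjamini-Hochberg adjusted p under 0.05 over 18193 genes in limma. Folds are given only where both group means lie above the median gene, and on this scale, which holds a pseudocount of 16, they understate the change of dim genes.

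Without a Prominin gate, Fgfr2, Fgfr3 and Etv5 were higher in GFP-high cells than in those with low GFP, and Dusp6 was lower. These 4 of 9 genes compare with 15.8% of all genes called in that comparison. With the gate, only Dusp6 among the 9 was called, lower in GFP-high cells, against 1.68% of all genes. Among Prominin-selected cells, Spry1, Spry2 and Dusp6 were higher and Fgfr2 and Fgfr3 lower at E18 than in E14 GFP-high cells, 5 of 9 against 26.7% of all genes. Relative to E14 GFP-low cells, Spry2 was higher and Fgfr3 lower at E18, 2 of 9 against 17.4% of all genes. Between gated and ungated GFP-high cells 4 of 9 genes were called, with 20.7% of all genes. The same comparison in GFP-low cells called 1 of 9, with 19.2% of all genes. Over the 9 genes the median log2 difference was −0.19 in the ungated GFP contrast and 0.03 in the gated one, against −0.01 over all genes in each. At E18 it was 0.32 relative to E14 GFP-high cells and 0.04 relative to GFP-low cells, against −0.07 and −0.10 over all genes. In the ungated GFP contrast and both E18 comparisons the called genes went in both directions.

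**Figure D1:**
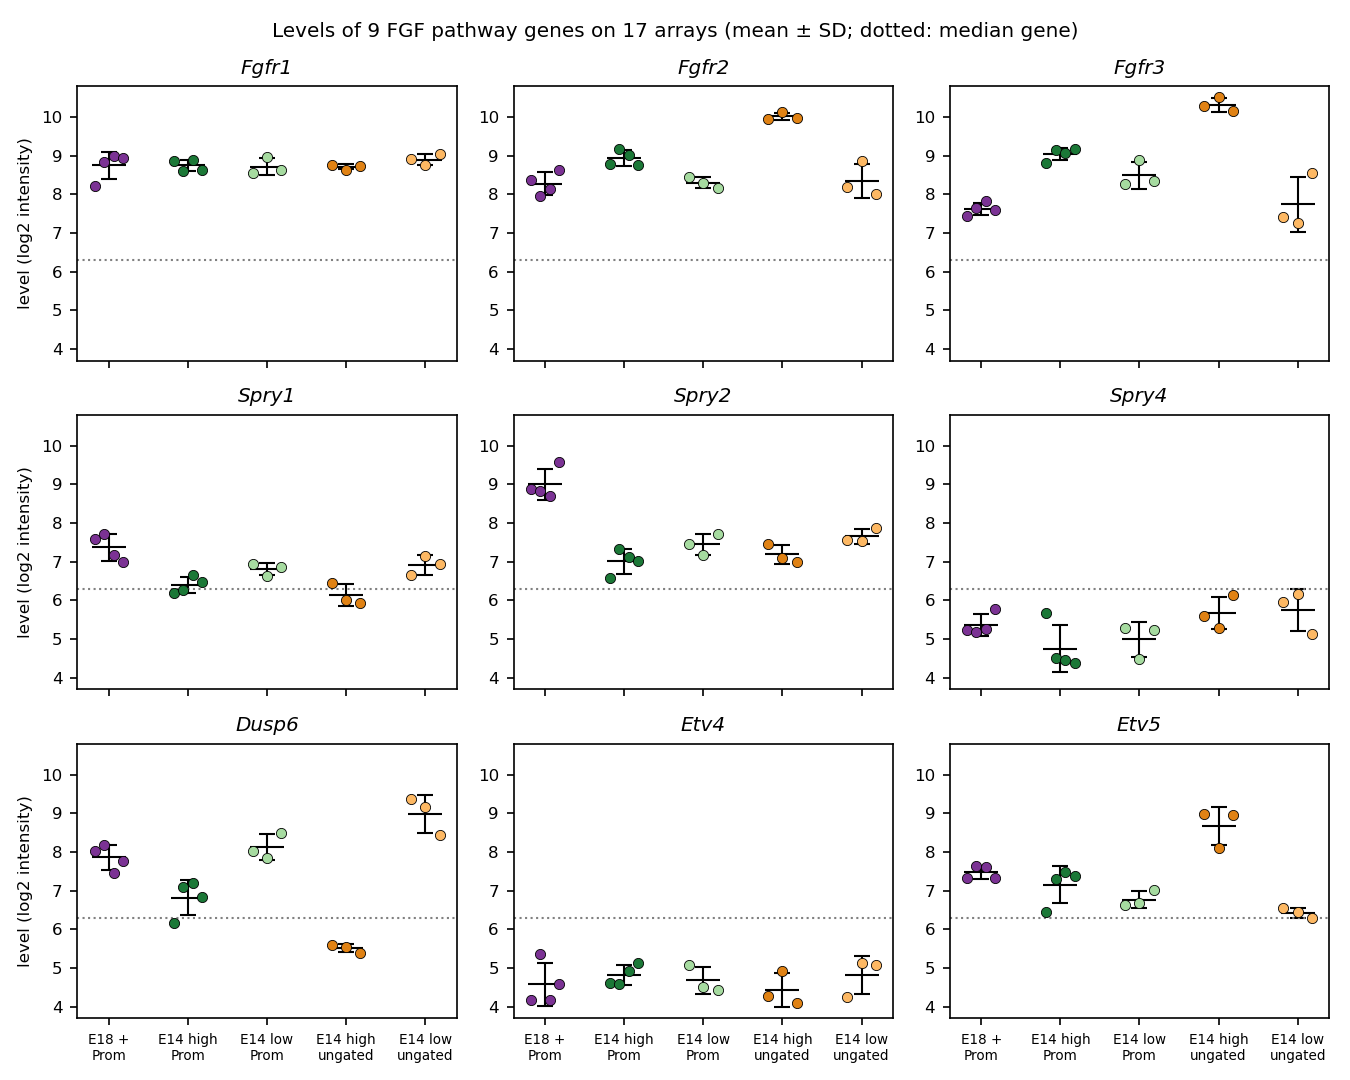
Level (log2 intensity, vertical axis) of the 9 genes in each of the 17 arrays, by group, with 1 point per array, the mean and the SD; the dotted line is the median gene at 6.29. Dusp6 lies highest in ungated GFP-low cells and lowest in ungated GFP-high cells, Etv5, Fgfr2 and Fgfr3 lie highest in ungated GFP-high cells, and Spry2 lies highest at E18.

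Fgfr3, a receptor of ventricular zone progenitors and later of astrocytes, was lowest at E18 and highest in ungated GFP-high cells. Its levels on the single arrays were 7.43, 7.64, 7.82 and 7.60 at E18, and 8.81, 9.14, 9.06 and 9.16 in GFP-high and 8.26, 8.90 and 8.33 in GFP-low Prominin-selected cells at E14. Ungated cells gave 10.28, 10.50 and 10.16 with high GFP and 7.40, 7.26 and 8.55 with low GFP. In the order of group means, only the ungated GFP-high cells lay apart from their neighbour, the gated GFP-high cells. GFP-low replicate 3 of the ungated cells, at 8.55, stood nearer to the gated GFP-low cells than to the other two ungated GFP-low arrays. Ungated GFP-high cells had 5.96-fold more Fgfr3 than ungated GFP-low cells (2.58 ± 0.35, adjusted p = 0.00347, limma). With the gate the difference was 0.55 ± 0.18 (95% interval 0.15 to 0.94, adjusted p = 0.188), and the 2 groups overlapped. At E18 the level was 2.68-fold lower than in E14 GFP-high cells (−1.42 ± 0.17, 7.62 ± 0.16 against 9.05 ± 0.16, adjusted p = 6.41e-05) and 1.83-fold lower than in E14 GFP-low cells (−0.88 ± 0.18, adjusted p = 0.00597), without overlap in either case. The second Fgfr3 probe set gave −1.03 and −0.54 for these E18 differences, and neither was called (adjusted p = 0.0818 and 0.448 over all probe sets). With the mean of the probe sets of a gene, the fall against E14 GFP-low cells was not called (−0.71, adjusted p = 0.0768).

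Fgfr2, another receptor of neural progenitors, also peaked in ungated GFP-high cells but changed less. It read 8.36, 7.95, 8.13 and 8.63 at E18, against 8.79, 9.18, 9.02 and 8.76 in E14 GFP-high and 8.45, 8.29 and 8.16 in E14 GFP-low Prominin-selected cells. The ungated arrays read 9.94, 10.12 and 9.98 with high GFP and 8.18, 8.85 and 8.01 with low GFP. The ungated GFP-high arrays lay above all others, and the remaining 4 groups overlapped with their neighbours. The ungated difference was 3.18-fold (1.67 ± 0.25, adjusted p = 0.00501), and the gated one was 0.64 ± 0.19 (interval 0.24 to 1.04, adjusted p = 0.123) with groups that did not overlap. E18 cells had 1.59-fold less than E14 GFP-high cells (−0.67 ± 0.17, adjusted p = 0.0116), while against E14 GFP-low cells the difference was −0.03 (interval −0.43 to 0.38, adjusted p = 0.946). The call at E18 was lost with the mean of the 3 probe sets (−0.29, adjusted p = 0.266).

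Fgfr1, a receptor also known from cortical progenitors, showed no called difference in any comparison when read from its brightest probe set. Group means were 8.75 ± 0.36 at E18, 8.75 ± 0.15 and 8.71 ± 0.22 in GFP-high and GFP-low Prominin-selected cells at E14, and 8.71 ± 0.07 and 8.90 ± 0.14 in ungated GFP-high and GFP-low cells. Every neighbouring pair of groups in that order overlapped. The interval of the difference was −0.40 to 0.47 for GFP-high minus GFP-low with the gate, −0.59 to 0.21 without it, and −0.40 to 0.41 for E18 minus E14 GFP-high cells.

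Spry2, an intracellular inhibitor that acts upstream of ERK, rose most at E18. Its arrays read 8.89, 8.83, 8.71 and 9.59 at E18, against 6.59, 7.33, 7.11 and 7.01 in E14 GFP-high and 7.46, 7.17 and 7.72 in E14 GFP-low Prominin-selected cells. All E18 arrays lay above every E14 array, since ungated cells read 7.47, 7.10 and 7.00 with high GFP and 7.57, 7.53 and 7.87 with low GFP. The rise was 3.98-fold over E14 GFP-high cells (1.99 ± 0.22, adjusted p = 4.35e-05) and 2.93-fold over E14 GFP-low cells (1.55 ± 0.24, adjusted p = 0.00103). A second, dimmer probe set moved the same way, by 0.73 (adjusted p = 0.0263 over all probe sets) and by 0.57 (adjusted p = 0.119). Between GFP levels Spry2 was not called, at −0.44 ± 0.24 with the gate (adjusted p = 0.479) and −0.47 ± 0.20 without it (adjusted p = 0.188).

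Spry1, a second Sprouty inhibitor, was 1.97-fold higher at E18 than in E14 GFP-high cells (0.98 ± 0.19, 7.37 ± 0.34 against 6.40 ± 0.21, adjusted p = 0.00181). The E18 arrays read 7.60, 7.72, 7.18 and 6.99 and the E14 GFP-high arrays 6.19, 6.26, 6.66 and 6.48, so the groups did not overlap. E14 GFP-low cells lay between them at 6.93, 6.64 and 6.86, and the difference from E18 was 0.56 ± 0.20 (adjusted p = 0.0740). That difference passed without E18 replicate 5 (0.69, adjusted p = 0.0376), with a pseudocount of 64, with values as deposited and without the dimmest 40% of genes. In every other alternative it was not called. In ungated cells Spry1 read 6.45, 6.02 and 5.92 with high GFP against 6.66, 7.16 and 6.93 with low GFP, a difference of −0.79 ± 0.22 that was not called (adjusted p = 0.0584) although the groups did not overlap. It passed in the fit on all 17 arrays (adjusted p = 0.0144), with a pseudocount of 64 and without the dimmest 40% of genes, and in no other alternative.

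Spry4, the third Sprouty gene measured, lay below the median gene in all groups, at 5.36 ± 0.28 at E18, 4.75 ± 0.61 and 4.99 ± 0.45 in GFP-high and GFP-low Prominin-selected cells, and 5.68 ± 0.43 and 5.76 ± 0.54 in ungated GFP-high and GFP-low cells. In limma 0 of 28 tests of its 4 probe sets were called, with 2 at an unadjusted p under 0.05. In Prominin-selected GFP-high cells replicate 1 read 5.67 and the other 3 arrays 4.38 to 4.51. Without replicate 1, Spry4 was higher at E18 than in E14 GFP-high cells (0.92, adjusted p = 0.0103, against 0.61 and 0.148 with it) and lower in gated than in ungated GFP-high cells (−1.23, adjusted p = 0.00798, against −0.92 and 0.0574 with it). The second of these also passed without ungated GFP-high replicate 2 (−1.12, adjusted p = 0.0477). Neither passed in any other alternative.

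Dusp6, the phosphatase that removes ERK's activating phosphates in the cytoplasm, had the largest difference of the 9 genes between GFP levels. On single arrays it read 5.59, 5.55 and 5.39 in ungated GFP-high cells against 9.36, 9.17 and 8.44 in ungated GFP-low cells. The GFP-high arrays lay below the median gene and the GFP-low arrays well above it, with no overlap. The difference was −3.48 ± 0.27 (5.51 ± 0.11 against 8.99 ± 0.49, adjusted p = 0.000654). With the Prominin gate Dusp6 read 6.17, 7.09, 7.19 and 6.84 in GFP-high cells against 8.04, 7.86 and 8.50 in GFP-low cells, again without overlap. That is 2.48-fold less (−1.31 ± 0.26, 6.82 ± 0.46 against 8.13 ± 0.33, adjusted p = 0.0325). The direction was the same in all 16 alternatives, with a difference of −1.45 to −1.02, but the call was kept in 7 of them. It ended without GFP-high replicate 1 (adjusted p = 0.0554) or 4 (0.0882), without GFP-low replicate 1 (0.0829), 2 (0.0638) or 3 (0.119), and with a replicate block (−1.26, adjusted p = 0.125). GFP-high replicate 1, which has the lowest Dusp6 of its group, is also the array on which the dap spike-in control read 4145, against 0.632 to 21.6 on the other 6 E14 Prominin-selected arrays. A dap signal was also read on every E18 array (837 to 2356) and every ungated array (613 to 1713).

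At E18 Dusp6 read 8.01, 8.19, 7.47 and 7.77. It was 2.05-fold higher than in E14 GFP-high cells (1.04 ± 0.24, adjusted p = 0.00692), which it did not overlap. Against E14 GFP-low cells the difference was −0.27 (interval −0.84 to 0.30, adjusted p = 0.546). In the order of groups, ungated GFP-low, gated GFP-low and E18 cells overlapped with their neighbours, then gated GFP-high and then ungated GFP-high cells lay apart below them.

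Etv5, an ETS activator of the PEA3 group, ran the other way in ungated cells. It read 8.98, 8.09 and 8.95 in GFP-high cells against 6.55, 6.44 and 6.30 in GFP-low cells. The lowest GFP-high array lay above the highest GFP-low array by a wide margin, and the difference was 4.73-fold (2.24 ± 0.27, 8.67 ± 0.50 against 6.43 ± 0.13, adjusted p = 0.00219). With the gate the arrays read 6.45, 7.29, 7.48 and 7.38 in GFP-high cells against 6.62, 6.67 and 7.01 in GFP-low cells. These groups overlapped through GFP-high replicate 1, and the difference was not called (0.38 ± 0.23, interval −0.12 to 0.89, adjusted p = 0.538). At E18 Etv5 read 7.32, 7.63, 7.61 and 7.33, which did not differ from E14 GFP-high cells beyond the threshold (0.32 ± 0.22, adjusted p = 0.328). Against E14 GFP-low cells it was higher by 0.70 ± 0.23 without overlap, at an adjusted p of 0.0567. Leaving out the dimmest 40% of genes brought that difference past the threshold (adjusted p = 0.0277). So did a pseudocount of 64, values as deposited and the fit on the 2 groups compared, but no other alternative.

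Etv4, the second PEA3 factor measured, stayed dim at 4.57 ± 0.56 at E18, 4.81 ± 0.26 and 4.68 ± 0.36 in GFP-high and GFP-low Prominin-selected cells and 4.44 ± 0.44 and 4.83 ± 0.49 in ungated GFP-high and GFP-low cells. In limma 0 of 14 tests of its 2 probe sets were called or reached an unadjusted p under 0.05, and at these levels a difference between groups may not be detectable.

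**Figure D2:**
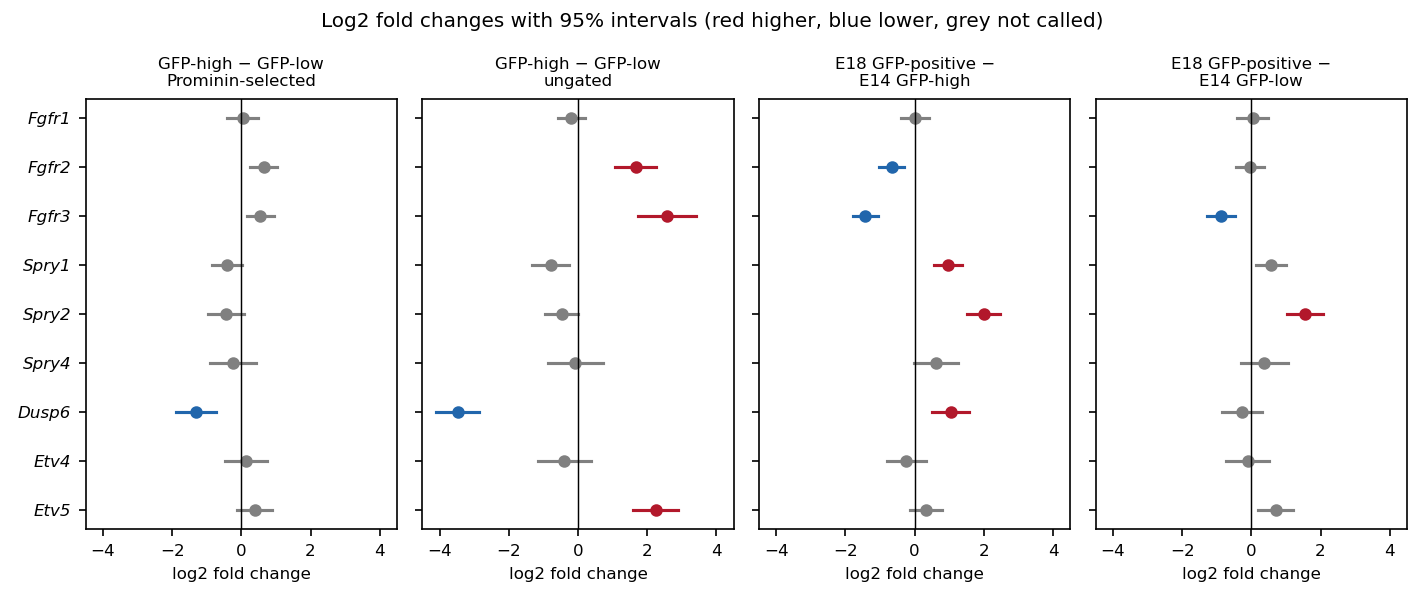
Log2 difference (horizontal axis) with its 95% interval for each of the 9 genes in the gated and ungated GFP contrasts and in E18 minus E14 GFP-high and minus E14 GFP-low cells; red points were called higher, blue points were called lower and grey points were not called. Dusp6 lies at −3.48 without the gate and −1.31 with it, and Spry2 at 1.99 and 1.55 in the E18 comparisons.

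The GFP contrasts differed between gated and ungated cells for 4 of the 9 genes when the difference itself was tested, against 7.7% of all genes. The gated minus the ungated contrast was 2.17 ± 0.39 for Dusp6 (adjusted p = 0.00221), −2.03 ± 0.37 for Fgfr3 (adjusted p = 0.00257) and −1.86 ± 0.36 for Etv5 (adjusted p = 0.00407). In all 3 genes the contrast between GFP levels was smaller with the gate. These calls were kept in all 21 alternatives. In the fit over all probe sets the dimmer probe sets of Fgfr3 and Etv5 went the same way but were not called. They gave −2.16 for Fgfr3 (adjusted p = 0.0606) and −1.51 and −1.55 for Etv5 (adjusted p = 0.0931 and 0.0903). For Fgfr2 the gated minus the ungated contrast was −1.03 ± 0.30 (adjusted p = 0.0474). That call was kept in only 4 of the 21, at adjusted p between 0.0105 and 0.234. It ended when any 1 of 11 of the 13 arrays was left out, at adjusted p up to 0.113. The exceptions were Prominin-selected GFP-high replicate 2 and ungated GFP-low replicate 2. In the fit over all probe sets 1 dimmer Fgfr2 probe set was called (−1.58, adjusted p = 0.00979). The dimmest was not (0.72, adjusted p = 0.481).

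Several marker lists moved with the GFP contrasts, and others did not. Of 9 interneuron genes 0 were called with the gate and 1 was lower without it. The oligodendrocyte lineage, endothelial and microglia lists had 0 called genes in either contrast. Of 7 choroid plexus and hem genes 1 was lower in each contrast. This was Rspo3, at 6.40 against 8.29 with the gate and 5.04 against 9.04 without it. Of 12 radial glia genes, 11 were higher in ungated GFP-high cells and 3 in gated ones. Of 10 genes of postmitotic neurons 9 and 5 were lower. The shares of all genes called were 15.8% without the gate and 1.68% with it. The mean level of the neuron list was 9.02 to 9.32 in ungated GFP-high cells against 11.76 to 11.88 in ungated GFP-low cells, and 9.88 to 10.17 against 10.76 to 10.91 with the gate. All 10 neuron genes lay above the median gene in every group, so RNA of these genes was read in all 5 sorts. Which cells it came from was not tested. The basal progenitor list averaged 10.97 to 11.08 in ungated GFP-high cells against 8.63 to 9.37 in ungated GFP-low cells, and 10.27 to 10.49 against 9.48 to 9.76 with the gate. Genes of Cajal-Retzius cells, the early neurons that secrete reelin, were lower in gated GFP-high cells in all 6 cases (median −1.80, against −0.01 for all genes), among them Reln at 9.02 against 11.82 in GFP-low cells. That list averaged 5.74 to 6.10 on gated GFP-high arrays against 7.38 to 7.93 on gated GFP-low arrays. Without the gate 1 of the 6 was higher and 1 lower, and the list averaged 5.43 to 5.48 in GFP-high against 5.58 to 5.91 in GFP-low cells. The part of these cell types in the differences of Fgfr2, Fgfr3, Etv5 and Dusp6 was not tested.

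**Figure D3:**
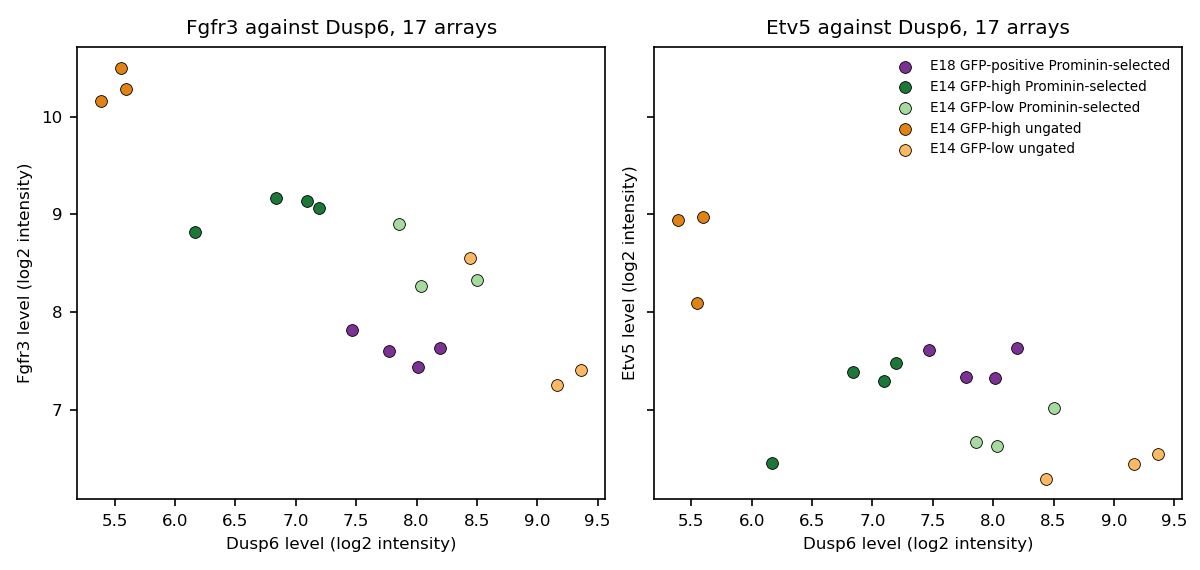
Levels of Fgfr3 and Etv5 (vertical axes, log2 intensity) against the level of Dusp6 (horizontal axis, log2 intensity), with 1 point per array in the colour of its group. Ungated GFP-high arrays have the highest Fgfr3 and Etv5 and the lowest Dusp6, at 5.39 to 5.59.

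Across the 17 arrays Dusp6 ran opposite to Fgfr3 and Etv5. Pearson's r was −0.87 between Dusp6 and Fgfr3 and −0.74 between Dusp6 and Etv5, as a description only, since the arrays fall into 5 groups and share the normalisation. After group means were removed these were −0.45 and 0.55. Spry1 and Spry2 gave 0.77 across arrays and 0.01 within groups, so this likeness lay between the groups and not among replicates.

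The genes with the most similar pattern were found for each of the 7 genes above the median, by Pearson's r over the same 17 arrays. For Fgfr3 they were Top2a (0.978), Kif20b (0.978) and Melk (0.975), all known for roles in dividing cells. Fgfr2 was nearest to Kif23 (0.940), Alkbh5 (0.935) and Sfrp2 (0.930), and Etv5 to Tmpo (0.924), Ednrb (0.915) and Slbp (0.911). Dusp6 was nearest to Spock1 (0.978), Synrg (0.974) and Znrf2 (0.967). Spry1 was nearest to Sertm1 (0.933), Lsamp (0.927) and Pfkfb2 (0.920), and Spry2 to Gsk3b (0.957), Kcnk2 (0.949) and Impact (0.945). The best value for Fgfr1 was only 0.719, with Vars2.

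Marker lists of other cell types also differed at E18. The shares of all genes called were 26.7% against E14 GFP-high and 17.4% against E14 GFP-low cells. Of 9 interneuron genes 8 were higher at E18 than in either E14 Prominin-selected group, and the list averaged 8.31 to 8.41 at E18 against 5.80 to 6.54 in E14 GFP-high and 6.32 to 6.86 in E14 GFP-low cells. Of 6 oligodendrocyte lineage genes, 3 were higher at E18, namely Olig1, Olig2 and Pdgfra. Sox10, Cspg4 and Nkx2-2 were not called and lay below the median gene at E18, at 5.43, 5.78 and 4.85. Sox10 averaged 5.84 in E14 GFP-high and 4.98 in E14 GFP-low cells. The list averaged 6.68 to 7.53 at E18, against 5.08 to 5.30 in E14 GFP-high and 4.83 to 5.03 in E14 GFP-low cells. Of the 10 neuron genes, 8 were higher than in E14 GFP-high cells, and 4 were higher and 1 lower than in E14 GFP-low cells. Of 6 basal progenitor genes 5 were lower at E18 than in either E14 group, with a median of −2.44 against E14 GFP-high and −1.79 against E14 GFP-low cells. The radial glia list had 2 genes higher and 8 lower than in E14 GFP-high cells (median −1.22), and 2 higher and 6 lower than in E14 GFP-low cells (median −0.67). Of the 6 Cajal-Retzius genes 3 were higher and 1 lower than in E14 GFP-high cells, and 4 were lower than in E14 GFP-low cells (median −1.56). The lists of endothelial, pericyte and microglia markers averaged 5.70 or less on every array. The part of these cell types in the rise of Spry1, Spry2 and Dusp6 and in the fall of Fgfr2 and Fgfr3 was not tested. The labels give the same kit for all 11 arrays of these comparisons, while the control signals above differ between the ages.

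Between gated and ungated GFP-high cells at E14, Dusp6 was higher in gated cells (1.31 ± 0.27, adjusted p = 0.00219), and Fgfr2 (−1.08 ± 0.21, adjusted p = 0.00140), Fgfr3 (−1.27 ± 0.25, adjusted p = 0.00195) and Etv5 (−1.52 ± 0.25, adjusted p = 0.000401) were lower. The Etv5 difference was 2.87-fold. With the labelling kit as a covariate, the estimates equal the difference between the gated arrays and the 1 ungated array of the same kit. They were −1.001 in Fgfr2 (adjusted p = 0.0560), −1.23 in Fgfr3 (adjusted p = 0.0562), 1.23 in Dusp6 (adjusted p = 0.0681) and −1.82 in Etv5 (adjusted p = 0.00565). Only Etv5 was then called, while the other 3 differences kept about the size they had without the covariate. For the ungated GFP contrast within the Affymetrix kit, the difference was 1.71 in Fgfr2, 2.59 in Fgfr3, −3.52 in Dusp6 and 2.09 in Etv5, against 1.67, 2.58, −3.48 and 2.24 over all 6 arrays. Between gated and ungated GFP-high cells 7 of 12 radial glia genes were lower. In the same comparison 6 of 10 neuron and 7 of 9 interneuron genes were higher, and 20.7% of all genes were called. The part of these cell types in the gate differences was not tested.

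In GFP-low cells, gated minus ungated, the kit and the gate cannot be told apart. Dusp6 was lower in gated cells (−0.86 ± 0.29, adjusted p = 0.0452), with groups that overlapped. The call ended without gated replicate 1 (adjusted p = 0.113) or 2 (0.149) and without ungated replicate 1 (0.174) or 2 (0.134), and with the replicate block (adjusted p = 0.0865). In the same cells 5 of 6 Cajal-Retzius, 5 of 12 radial glia and 6 of 9 interneuron genes were higher in gated cells. There 6 of 10 neuron genes were lower, and 19.2% of all genes were called. The part of these cell types was not tested. Without ungated replicate 3, Fgfr3 was called too (1.17, adjusted p = 0.00119, against 0.76 and 0.0617 with it), as was Spry4 (−1.07, adjusted p = 0.0499). Fgfr3 also passed with a pseudocount of 64 and without the dimmest 40% of genes. In every other alternative both genes were not called.

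In a fit over all probe sets, 9 of the 21 probe sets were called between gated and ungated GFP-high cells (21.7% of all probe sets) and 3 in the same comparison of GFP-low cells (19.6%). The counts were 7 in the ungated GFP contrast (11.7% of all), 6 for E18 against E14 GFP-high (23.3%), 2 for E18 against E14 GFP-low cells (16.2%) and 4 in the difference of contrasts (4.87%). In the gated GFP contrast 0 of 21 were called in limma (0.592% of all), with 3 at an unadjusted p under 0.05; there Dusp6 stood at an adjusted p of 0.0506. The probe sets of 1 gene did not always give the same gate difference. For Fgfr1, the probe set with the suffix _a_at read 6.17 ± 0.23 in gated against 8.44 ± 0.33 in ungated GFP-high cells (−2.27, adjusted p = 5.95e-05 over all probe sets) and 5.76 ± 0.80 against 8.48 ± 0.33 in GFP-low cells (−2.72, adjusted p = 4.18e-05). The brightest Fgfr1 probe set gave 0.04 and −0.19 and the third 0.14 and 0.40, and none of these 4 was called. The suffix marks probes shared by transcripts of 1 gene, and the transcripts were not resolved here. The brightest probe sets of Fgfr1 and Fgfr2 carry another suffix, _s_at. Which probe set follows its gene more closely was not tested. The _a_at probe set of Fgfr2 differed by −2.72 in GFP-high cells (5.93 in gated against 8.64 in ungated cells) and by −1.13 in GFP-low cells (5.78 against 6.92), whereas the brightest Fgfr2 probe set gave −1.08 and −0.05. The _a_at probe set of Fgfr3 differed by −1.93 in GFP-high cells (adjusted p = 0.00377, limma). In GFP-low cells it was not lower with the gate (0.23, adjusted p = 0.787). The Gapdh 3′ and 5′ signals and the kit also differ between these arrays, and their part was not tested. For Etv5 all 3 probe sets were lower in gated GFP-high cells (−1.52, −1.75 and −2.22). In the ungated GFP contrast 2 of the 3 Etv5 probe sets were called and the third was at 1.36 (adjusted p = 0.129).

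**Figure D4:**
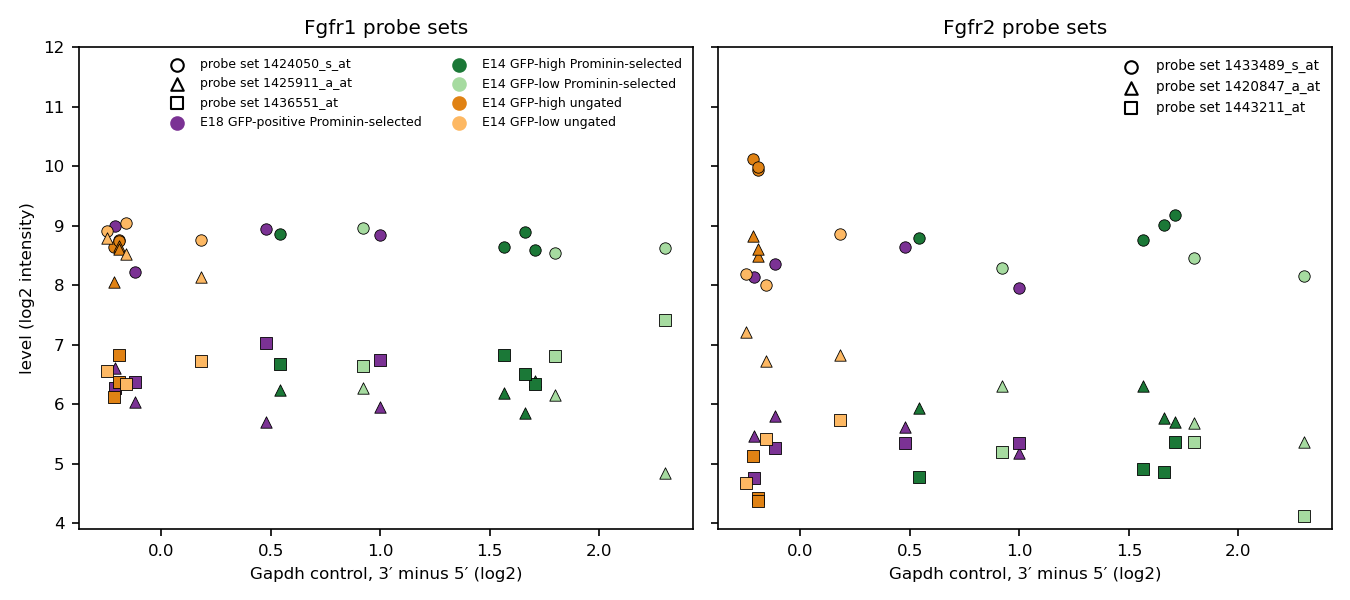
Level of the probe sets of Fgfr1 and Fgfr2 (vertical axis, log2 intensity) against the Gapdh control's 3′ minus 5′ difference (horizontal axis, log2), with 1 point per array in the colour of its group. The _a_at probe set of each gene lies lower on Prominin-selected arrays than on ungated arrays of E14.

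The rest of the pathway was read from lists of ligands, receptor partners, cascade members and other inhibitors. None of 18 FGF ligand genes had a mean above the median gene, and in the gated GFP contrast limma called 0 (2 at an unadjusted p under 0.05). Fgf18, a ligand known from the developing cortical plate of the mouse, was lower in ungated cells with high GFP than with low GFP (−1.49 ± 0.21, adjusted p = 0.00408), as was Fgf10 (−0.85 ± 0.20, adjusted p = 0.0318). Fgf18 was also lower at E18 than in E14 GFP-high cells (−0.95 ± 0.22, adjusted p = 0.00568), and Fgf17 was higher there (0.54 ± 0.18, adjusted p = 0.0367).

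Of 18 receptor partners, 7 were higher and 2 lower in ungated GFP-high cells, with a median of 0.46 against −0.01 over all genes. The share of all genes called in that comparison was 15.8%. The glypican Gpc6 (2.18 ± 0.25, adjusted p = 0.00176) and the FGF-binding protein gene Fgfbp3 (2.10 ± 0.27, adjusted p = 0.00292) were among those higher, and Flrt2, which encodes a membrane protein that binds FGF receptors, was lower (−2.44 ± 0.25, adjusted p = 0.00122). With the gate, Flrt2 was the 1 partner called, lower again at 8.15 against 9.15 (−1.01 ± 0.13, adjusted p = 0.00594). At E18 against E14 GFP-high cells 3 partners were higher and 6 lower, with 26.7% of all genes called. Among them Flrt2 was higher (1.13 ± 0.12, adjusted p = 3.45e-05). The glypicans Gpc1 (−1.76 ± 0.15, adjusted p = 4.85e-06) and Gpc4 (−2.03 ± 0.18, adjusted p = 8.79e-06) were lower. Flrt2 thus had called differences in the same directions as Dusp6 in these 3 comparisons, which is a description of 2 genes only.

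Of the 15 measured of 23 listed genes of the route to ERK, limma called 0 with the gate (1 at an unadjusted p under 0.05), and Map2k1, the kinase that activates ERK, was higher in ungated GFP-high cells (0.92 ± 0.17, adjusted p = 0.0104), as was the adaptor gene Shc1 (1.27 ± 0.27, adjusted p = 0.0212). At E18 against E14 GFP-high cells 3 were higher and 4 lower, with 26.7% of all genes called. Those higher were the exchange factor Sos1 (1.03 ± 0.14, adjusted p = 0.000140) and the kinases Araf (1.33 ± 0.19, adjusted p = 0.000246) and Braf (1.06 ± 0.17, adjusted p = 0.000728). Cic, the repressor named above, was lower in gated than in ungated GFP-high cells (−0.87 ± 0.19, adjusted p = 0.00364) and GFP-low cells (−0.80 ± 0.20, adjusted p = 0.0117), where the kit differs too.

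Of 17 other inhibitors of receptor and ERK signalling, 2 were higher and 4 lower in ungated GFP-high cells, with 15.8% of all genes called. The sulfatase gene Sulf2 (−1.75 ± 0.21, adjusted p = 0.00198) and the nuclear phosphatase gene Dusp4 (−1.07 ± 0.16, adjusted p = 0.00540) were lower, in the direction of Dusp6. The list as a whole was split, with differences from −1.75 to 1.97 and a median of 0.13, against −0.01 over all genes. With the gate, Sulf2 was lower (−1.38 ± 0.24, adjusted p = 0.0200) and Lrig1, an inhibitor of receptor tyrosine kinases, higher (1.07 ± 0.22, adjusted p = 0.0362). Of 12 immediate early genes, 1 was lower with the gate (list median −0.05), and 1 was higher and 3 lower without it (median 0.17). The shares of all genes called were 1.68% with the gate and 15.8% without it. Fosl2 was lower in GFP-high cells with the gate (−1.48 ± 0.31, adjusted p = 0.0358) and without it (−2.62 ± 0.22, adjusted p = 0.000767). Without the gate Myc was lower (−1.45 ± 0.17, adjusted p = 0.00211) and Jun higher (1.36 ± 0.20, adjusted p = 0.00471). At E18 against E14 GFP-high cells 2 were higher, Myc (0.97 ± 0.25, adjusted p = 0.0117) and Fosl2 (0.96 ± 0.29, adjusted p = 0.0247). There 26.7% of all genes were called. Between gated and ungated cells 1 immediate early gene was higher with high GFP, and 3 were higher and 1 lower with low GFP. The shares of all genes called there were 20.7% with high GFP and 19.2% with low GFP. Egr1 was higher in gated than in ungated cells, by 2.48 ± 0.65 with high GFP (adjusted p = 0.0115) and 3.29 ± 0.70 with low GFP (adjusted p = 0.00352).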

How the data were processed

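The authors deposited a linear intensity for each of 45101 probe sets, as the values themselves show. How probes were summarised is not given in the sources used here. Values ran from 0.0397 to 59926, and the mean between the 2nd and 98th percentiles was 150.0 on every array. The labels name RNeasy extraction and biotin labelling.

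After 64 control probe sets were left out, 34945 had 1 symbol, 932 several and 9160 none. Values were log2-transformed with a pseudocount of 16 and quantile-normalised over 17 arrays, because the spread of array medians was 0.603 (log2). For the 9010 of 18193 genes with several probe sets, the one with the highest mean was used.

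limma 3.58.1 (R 4.3.3; figures with matplotlib 3.10.9 in Python 3.11.15) was fitted over all genes, with two-sided moderated tests and Benjamini-Hochberg adjustment. Comparisons among Prominin-selected groups used those 11 arrays, the ungated GFP contrast its 6, the others all 17. A second fit covered all probe sets. The code was tested on simulated data. The same replicate number did not pair arrays (correlations −0.144 to 0.040). The genes and lists were chosen with earlier results of these data known. Named were all 10 genes and, of each pathway list, up to 3 called genes with the lowest p per comparison. Alternatives are in the closing section.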

Additional observations from a re-analysis of the deposited data

Results flagged for a closer look

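Spry4 in E18 cells had 1 array that stood apart: replicate 5 read 5.77 and the other 3 read 5.18 to 5.26, a gap of 0.860 of the group's range. In Prominin-selected GFP-high cells at E14, replicate 1 read 5.67 and the others 4.38 to 4.51, a gap of 0.895 of the range. Both lie below the median gene at 6.29, and 18 pairs of a gene and a group of 4 were examined, of which chance flags about 1 in 20.

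The GFP contrast at E14 differed between gated and ungated cells by the test of the difference for Dusp6 (2.17), Fgfr3 (−2.03), Etv5 (−1.86) and Fgfr2 (−1.03), each as gated minus ungated contrast on the log2 scale. The kit and the Gapdh, 18S and dap controls also differ between these arrays, and their part was not tested.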

How the results depend on the processing

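Of 1012 single-gene values under alternatives, 954 kept their side of the threshold, 19 gained a call, 38 lost one and 1 reversed with a call. Values not called in either fit count among the 954 even where the sign changed. Fgfr1 in the gated GFP contrast, for example, was 0.03 and became −0.002 with the replicate block. Fgfr1 between gated and ungated GFP-high cells reversed to −0.70 with the mean of its probe sets, which disagree. In the gated GFP contrast the count of genes called fell from 1 to 0 with a pseudocount of 1, the fit over all probe sets, the fit on the 2 groups and the replicate block, and was 0 to 1 when 1 array was left out. For E18 against E14 GFP-low cells it was 4 with a pseudocount of 64, with values as deposited and without the dimmest 40% of genes, and 1 with the mean of probe sets, against 2. Between gated and ungated GFP-high cells it was 1 with the kit as a covariate, against 4. Between gated and ungated GFP-low cells it was 0 with a pseudocount of 1, the kit covariate or the replicate block, 2 with a pseudocount of 64, the mean of probe sets or the dim genes left out, and 0 to 3 with 1 array left out, against 1. The cause of these changes was not tested. The replicate block also ended the Fgfr2 call in the difference of contrasts (adjusted p = 0.0501); same-numbered arrays did not deviate together (0 or 1 of 6 arrays correlated best with their own number, and 2 of 4 for E18 against E14 GFP-low cells). Fgfr2, Fgfr3, Dusp6 and Etv5 in the ungated GFP contrast kept their calls in all 15 alternatives. The dim signal of Spry4 and Etv4 limits what they can show.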
